A study of Mus musculus with 12 samples.

Results

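Among 15848 union H3K4me3 peaks of mouse cardiomyocytes (CMs), 531 were assigned to long noncoding RNA (lncRNA) genes on autosomes and were narrower than 5000 bases. They were chosen by the biotype that the deposited table gives for the nearest gene, with no use of their values. Of these members, 287 were annotated as lincRNA (intergenic), 141 as antisense RNA, 87 as processed transcript, 12 as sense intronic, 2 as bidirectional promoter and 2 as sense overlapping. They belonged to 513 genes, 17 of which carried more than 1 member peak. Another 15 autosomal peaks of lncRNA genes were 5000 bases or wider and another 15 lay on sex chromosomes, and these are not members. One member, Zswim6, has become protein coding in the GENCODE vM21 annotation that supplied the symbols.

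H3K4me3 ChIP–seq was performed on sorted nuclei of adult CMs from 3 CtrlCre and 3 Cpt1bcKO samples. CtrlCre mice were αMHC-Cre pos/+;Cpt1b+/+, and Cpt1bcKO mice were αMHC-Cre pos/+;Cpt1b fl/fl, so that both genotypes carried the Cre transgene. The αMHC promoter drives Cre in CMs from embryonic stages, and exons 10 to 11 of Cpt1b are flanked by loxP sites. Cpt1b encodes the muscle isoform of carnitine palmitoyltransferase, which long-chain fatty acids need to enter mitochondria for oxidation, and the comparison asks how its loss changes this histone mark. The age of the animals used for ChIP was given only as adult, and the strain was C57BL/6. The paper states at least 3 biological replicates for in vivo studies. It gives 3 mice each for the genes with both less expression and less H3K4me3. Nothing in the labels states which libraries came from separate animals, so p-values measure the spread between these samples, which may be technical.

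Trimethylation of lysine 4 of histone H3 (H3K4me3) marks nucleosomes around the starts of genes transcribed by RNA polymerase II, coding and noncoding alike. It is densest where CpG dinucleotides are frequent, because proteins that recruit the methyltransferases bind unmethylated CpG. LncRNAs are transcribed, capped and often spliced like messenger RNAs, but are not known to encode proteins. Many start close to a protein-coding promoter and run in the opposite direction, others start far from any gene, and some act on chromatin in cis, as the imprinted transcripts Kcnq1ot1 and Airn do when they silence neighbouring genes on the paternal chromosome. A ChIP peak records no strand, so that a peak over several starts cannot be divided among them.

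To make the base composition of the peaks visible, 7 sequences are shown, each in lower case with CpG dinucleotides in capitals. The first 5 are RefSeq promoters on GRCm38.p6, from 250 bases before to 50 bases after the gene start on the gene's strand, that lie wholly inside the member peak. Snhg8, a host gene of a small nucleolar RNA, stands for the CpG-rich promoters (chr3:123508287-123508586, minus strand). Kcnq1ot1 and Airn are the imprinted pair (chr7:143296498-143296797, minus strand, and chr17:12741061-12741360, plus strand), while Chaer1 and Gm40604 are 2 intergenic genes whose peaks were lower in Cpt1bcKO (chr5:77140256-77140555 and chr10:15760024-15760323, both minus strand).
Snhg8: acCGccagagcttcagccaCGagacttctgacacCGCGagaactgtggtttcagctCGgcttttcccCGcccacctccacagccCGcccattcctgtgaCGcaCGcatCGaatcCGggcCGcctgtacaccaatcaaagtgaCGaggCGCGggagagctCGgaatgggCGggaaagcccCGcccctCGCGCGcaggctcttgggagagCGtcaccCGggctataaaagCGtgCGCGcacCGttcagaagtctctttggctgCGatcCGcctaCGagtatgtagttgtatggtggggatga
Kcnq1ot1: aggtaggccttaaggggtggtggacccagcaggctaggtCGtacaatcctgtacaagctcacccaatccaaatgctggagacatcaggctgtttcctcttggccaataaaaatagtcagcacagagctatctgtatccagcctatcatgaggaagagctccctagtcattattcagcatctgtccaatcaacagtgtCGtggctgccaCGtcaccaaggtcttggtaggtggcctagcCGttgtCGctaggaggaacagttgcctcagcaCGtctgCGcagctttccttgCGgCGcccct
Airn: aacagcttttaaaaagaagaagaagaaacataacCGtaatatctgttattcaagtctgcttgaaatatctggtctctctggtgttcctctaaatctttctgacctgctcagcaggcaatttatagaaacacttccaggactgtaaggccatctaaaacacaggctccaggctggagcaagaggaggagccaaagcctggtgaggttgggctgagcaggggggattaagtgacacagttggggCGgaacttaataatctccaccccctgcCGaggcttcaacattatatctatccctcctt
Chaer1: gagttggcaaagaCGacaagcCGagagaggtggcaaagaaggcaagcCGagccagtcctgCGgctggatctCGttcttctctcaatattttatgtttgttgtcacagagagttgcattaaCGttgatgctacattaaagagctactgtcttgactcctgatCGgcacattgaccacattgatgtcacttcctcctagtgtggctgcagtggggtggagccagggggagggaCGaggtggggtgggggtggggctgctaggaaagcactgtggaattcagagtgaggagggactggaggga
Gm40604: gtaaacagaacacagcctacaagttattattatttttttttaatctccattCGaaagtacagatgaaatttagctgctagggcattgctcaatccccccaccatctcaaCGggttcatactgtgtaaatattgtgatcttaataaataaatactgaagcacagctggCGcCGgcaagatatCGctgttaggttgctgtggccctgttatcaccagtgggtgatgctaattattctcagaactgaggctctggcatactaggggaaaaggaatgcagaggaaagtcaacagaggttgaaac
The last 2 are 250 bases of the plus strand around the summit of the peak that fell most in Cpt1bcKO, Gm24474 (chr12:70650427-70650676), and of a raised peak, Gm48626 (chr13:35031227-35031476).
Gm24474: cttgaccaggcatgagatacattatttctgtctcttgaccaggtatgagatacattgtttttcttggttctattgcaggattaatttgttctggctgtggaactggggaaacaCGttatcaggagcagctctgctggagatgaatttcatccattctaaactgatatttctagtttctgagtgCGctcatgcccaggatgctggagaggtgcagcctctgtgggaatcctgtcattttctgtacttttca
Gm48626: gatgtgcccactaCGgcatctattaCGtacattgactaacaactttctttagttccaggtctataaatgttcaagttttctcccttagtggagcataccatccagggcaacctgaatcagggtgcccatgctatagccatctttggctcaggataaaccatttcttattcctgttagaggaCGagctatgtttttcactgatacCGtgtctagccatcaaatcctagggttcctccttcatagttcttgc
The Snhg8 promoter held 30 CpG in its 300 bases. By contrast, Kcnq1ot1 held 9, Chaer1 8, Gm40604 5 and Airn 3, and the median over all 32851 RefSeq promoters was 7. The 2 summit windows held 2 CpG (Gm24474) and 4 CpG (Gm48626) in 250 bases.

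RefSeq promoters were found for 253 of the 513 member symbols, and 140 of these windows lay wholly inside the member peak. Over all 319 windows of these symbols the median was 8 CpG per 300 bases, and over the 140 inside a peak it was 16, compared with 7 in all RefSeq promoters. A GC box (the letters GGGCGG on either strand), to which Sp-family factors bind, occurred in 30.7% of the 319 windows, in 54.3% of the 140 and in 35.7% of all promoters. The TATA box letters TATAAA, also searched on both strands, occurred in 16.6% of the 319, in 13.6% of the 140 and in 13.6% of all promoters. Of the promoters shown, Snhg8 and Airn held both motifs, and Kcnq1ot1, Chaer1 and Gm40604 held neither. The windows inside a peak were selected by H3K4me3 itself, and the counts describe letters, not binding.

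The deposited values are counts divided by size factors. They are called normalized values here and correspond to between 763133 (CtrlCre 2) and 2766416 (Cpt1bcKO 2) counts in peaks per library. Differences between genotypes are therefore relative to the bulk of the peaks, and a change shared by all peaks would not show. The paper reported less total H3K4me3 in Cpt1bcKO CM nuclei by western blot, which these values cannot address. Counting error at the median peak was 8.06 to 15.2% per library, largest in CtrlCre 2. Correlations of log2 values between libraries ran from 0.914 to 0.967, and no 2 libraries were identical. The 12 CM markers examined all had peaks, from 154 for Pcm1 to 2340 for Myh6. Of 27 markers of fibroblasts, endothelial, mural and immune cells, 5 had a peak assigned to them (Pdgfra, Kdr, Myh11, Acta2 and Kcnj8), and none of the 7 immune markers did. Marker starts inside peaks assigned to other genes were not searched. The summed value of these 5 peaks was 241 to 326 in CtrlCre and 137 to 198 in Cpt1bcKO. Acta2 had the largest fall, from 95.7 to 21.0 on average. Kdr went from 64.7 to 42.3, and Myh11 was also lower. Pdgfra (65.0 and 59.3) and Kcnj8 (28.3 in each genotype) changed little. The summed value of the CM markers was lower as well, with overlap, at 9142 to 11058 in CtrlCre and 6873 to 9815 in Cpt1bcKO. Whether other cells had a part in the differences described next was not tested.

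Most members were weak peaks. Of the 531, 482 averaged 10 or more across the 6 libraries and were tested, and the other 49 had means of 3.17 to 9.83. Among the tested members, the median level was 49.3 (quartiles 24.7 and 117), compared with 122 for the 10651 tested autosomal protein-coding peaks of the same width limit. The order held in every library: member medians ran from 46.0 to 53.0 and protein-coding medians from 119 to 122. Members took 2.07 to 2.18% of all normalized counts. They were also narrower, with a median width of 1325 bases against 1606. A mean of 200 or more was reached by 28 members (5.81%) and by 1794 protein-coding peaks (16.8%).

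Level and width both differed with what started inside the peak. Values were not divided by width, and a wider peak is likelier to hold a start. The parts of width and start in the level were not separated. At least 1 protein-coding start of another gene lay in 92 of the 531 member peaks, or 17.3% (95% Wilson interval 14.3 to 20.8%). In 84 of those the partner gene was on the opposite strand. These 92 peaks had a median level of 120, about that of the protein-coding peaks, and a median width of 1972 bases. A further 270 peaks held a start of their own gene and no protein-coding start of another gene. Zswim6, now protein coding itself, is among them. The 255 tested had a median level of 54.5 and a median width of 1330 bases. The remaining 169 held neither, and the 135 tested had a median of 27.5 and a median width of 917 bases. Of these 169, 57 overlapped the body of a protein-coding gene and 9 held the start of some other annotated gene. In the 92 peaks with a coding start, the mark cannot be assigned to the noncoding transcript alone.

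**Figure D1:**
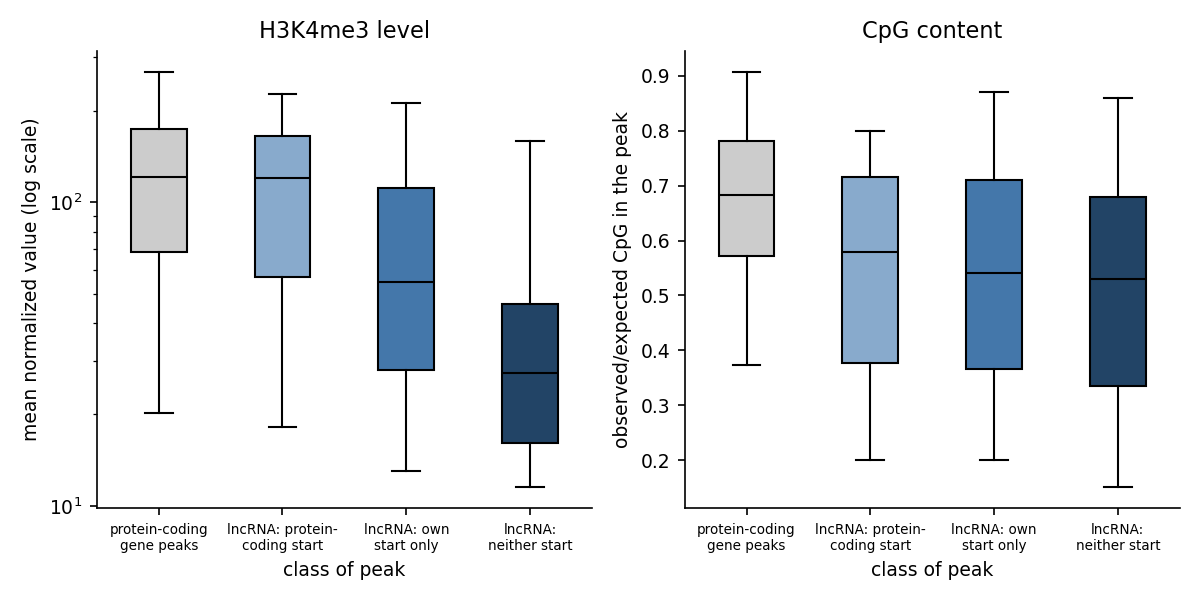
Mean normalized H3K4me3 value over 6 libraries on a log axis (left) and observed/expected CpG ratio (right) of tested peaks, for 10651 protein-coding peaks and for lncRNA peaks with a protein-coding start inside (92), with only their own start (255) and with neither (135). Boxes show quartiles with the median line and whiskers the 5th and 95th percentiles; the median level falls from 120 to 54.5 and 27.5 over the 3 lncRNA classes, whereas median CpG ratios are 0.58, 0.54 and 0.53 against 0.68 for protein-coding peaks.

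CpG content set the members apart from protein-coding peaks in all 3 classes. Calling a peak CpG-rich at an observed/expected ratio of at least 0.6 and at least 50% GC, 173 of the 482 tested members (35.9%) and 6966 of the 10651 protein-coding peaks (65.4%) were CpG-rich. Even the 92 members over a protein-coding start were CpG-rich in 43.5% of cases. Median levels were 62.8 for CpG-rich and 44.7 for CpG-poor members, and 123 and 118 for protein-coding peaks, so the gap between lncRNA and coding peaks was wider than the gap between CpG classes.

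The 5 strongest members showed no call between genotypes. The peak of ENSMUSG00000086149, an antisense gene over the start of Anks1, had values of 419, 500 and 474 in CtrlCre and 493, 460 and 380 in Cpt1bcKO. Similarly, 1700123J17Rik gave 439, 414 and 474 against 487, 519 and 390. In both, the libraries of the 2 genotypes interleaved, with log2 differences of −0.07 ± 0.11 (SE) and 0.06 ± 0.11. Means over 6 libraries were 334 for Gm37027, 330 for Gm15334, which holds the start of Arhgap26, and 280 for Zswim6, with adjusted p of 0.655 to 0.732. Strength and width went together only in part: the widest members were Gm5532 (4841 bases, mean 203), Frmd8os (4767 bases, mean 105) and Gm26578 (4624 bases, mean 75.5). Just beyond the width limit, 4932430I15Rik measured 5236 bases (194, 195 and 203 in CtrlCre; 242, 275 and 263 in Cpt1bcKO) and 2810410L24Rik 5454 bases (370, 358 and 450; 358, 425 and 362). The genotypes were separate at 4932430I15Rik and overlapped at 2810410L24Rik.

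A small set of lncRNA peaks differed between CtrlCre and Cpt1bcKO, in both directions. In limma's test on log2(value + 1), with Benjamini–Hochberg adjustment over all 15039 tested peaks, 8 of 482 members had more H3K4me3 in Cpt1bcKO (1.66%) and 14 had less (2.90%), taking an adjusted p of 0.05 as the limit. The same limit called 1.11% of all tested peaks higher and 1.82% lower, so the shares among lncRNA peaks lay somewhat above this background, without a test of the difference. At an unadjusted p under 0.05 there were 31 higher (6.43%; background 5.84%) and 54 lower (11.2%; background 6.98%). In pooled nuclei, fewer nuclei with the mark and less mark per nucleus cannot be told apart. The median log2 difference was −0.022 over members and 0.006 over all peaks. Like every difference given here, it is relative to the bulk of the peaks, because of the size factors. The count of calls was 13 without CtrlCre 1, 13 without Cpt1bcKO 2 and 14 without Cpt1bcKO 3, and 13 when only peaks with a mean of at least 50 were tested. Of the 22 calls, 9 (4 higher and 5 lower) passed in each of 13 fits, which included the main fit and every removal of 1 library. The fit limited to means of at least 50 is not among the 13. Of the 9, Gm26785, Gm48626, Gm15283 and Gm40604 were below that limit and were not tested in it. In all 22 the 3 libraries of 1 genotype lay above the 3 of the other. The test chose these peaks from the same values, so the separation adds no support. Over the 482 tested members, 36 (7.47%) were separated in that way upwards and 56 (11.6%) downwards. The shares over all tested peaks were 7.80% and 8.46%.

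**Figure D2:**
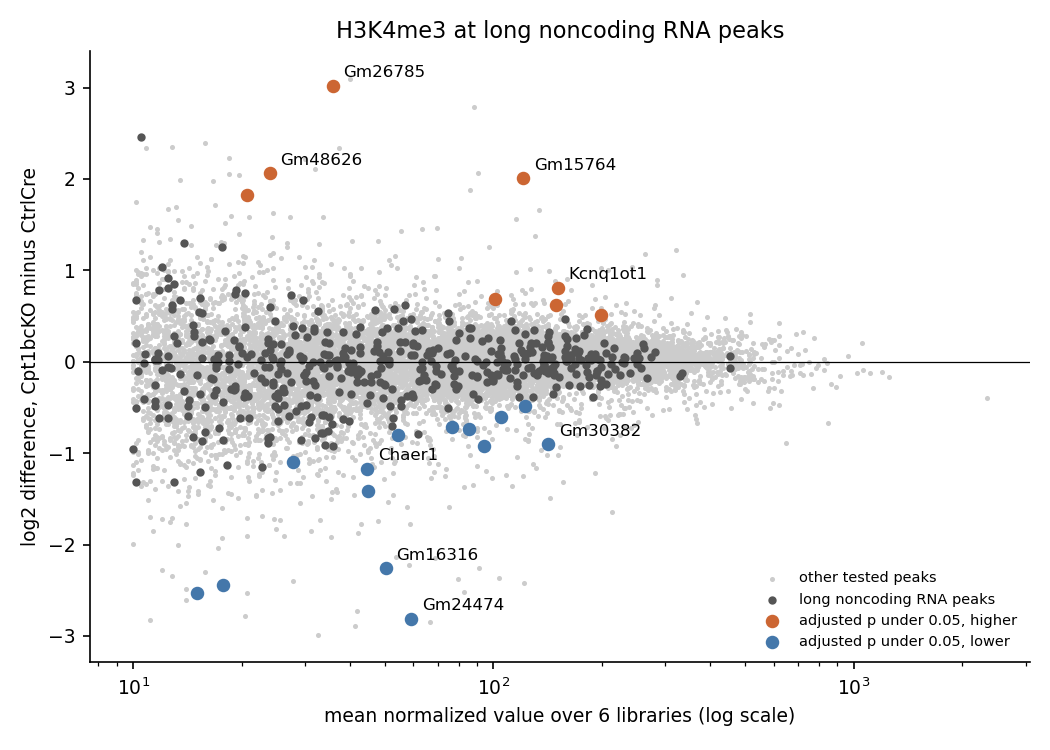
Mean normalized value over 6 libraries (log axis) against the log2 difference, Cpt1bcKO minus CtrlCre, for the tested peaks: other peaks in light grey, lncRNA peaks in dark grey, and those with an adjusted p under 0.05 in orange (8 higher) or blue (14 lower). Called peaks lie between log2 differences of −2.81 (Gm24474) and 3.02 (Gm26785) and none has a mean above 199.

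The peak of Kcnq1ot1, the paternally expressed antisense transcript that starts in an intron of Kcnq1 and silences neighbouring genes in cis, was higher in Cpt1bcKO. The values were 106, 95 and 128 in CtrlCre and 177, 210 and 189 in Cpt1bcKO, without overlap. The log2 difference was 0.81 ± 0.12 (SE, adjusted p = 0.000329, limma), and the call was kept in each removal of a library. The peak (chr7:143294019-143296983, mm10) contained the whole promoter printed above. The nearest tested peak assigned to a coding gene, Cdkn1c, which Kcnq1ot1 is known to repress on the paternal chromosome, gave 49, 53 and 72 in CtrlCre and 43, 54 and 50 in Cpt1bcKO (log2 difference −0.23 ± 0.21, adjusted p = 0.738). The 2 genotypes overlapped there.

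Larger factors were found at 4 low or moderate peaks. Gm26785 (chr17:46268173-46269820) went from 8, 14 and 2 to 37, 58 and 96, a log2 difference of 3.02 ± 0.47 (adjusted p = 0.000396, limma). It contained a start of a noncoding transcript of Tjap1, a tight junction gene, and lay 951 bases from the nearest protein-coding start of that gene. The CtrlCre values corresponded to few reads, since a count of 3 is worth 2.52, 6.97 and 2.82 in these libraries. Gm15764 went from 33, 79 and 38 to 164, 199 and 211, with a log2 difference of 2.01 ± 0.22 (adjusted p = 2.77e-06). The genotypes did not overlap at either peak, and both calls held in each removal of a library. Gm44317 (chr6:119572597-119574400), within the body of Erc1, went from 7, 12 and 7 to 26, 33 and 39 (1.82 ± 0.39, adjusted p = 0.00801), and the call was lost without Cpt1bcKO 2 (adjusted p = 0.0615) or Cpt1bcKO 3 (adjusted p = 0.0742).

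The fourth was 1 of 2 peaks of Gm48626, a lincRNA gene next to Eci2, whose product is an isomerase that prepares unsaturated fatty acids for β-oxidation. At chr13:35030834-35032419, over its own start, the values were 8, 9 and 9 in CtrlCre and 36, 45 and 37 in Cpt1bcKO. The log2 difference was 2.06 ± 0.35 (adjusted p = 0.000993, limma) and held in each removal of a library. The second peak, at chr13:35026604-35027174, contained an annotated start of Eci2 and pointed the other way, with 23, 37 and 17 in CtrlCre and 12, 10 and 10 in Cpt1bcKO. Its log2 difference of −1.13 ± 0.40 did not pass (adjusted p = 0.164), although the genotypes did not overlap. Another, larger peak assigned to Eci2 itself, 35800 bases from the raised one, gave 168, 235 and 192 against 232, 246 and 212 (0.22 ± 0.12, adjusted p = 0.433). The Eci2 start was the only start from a list of 50 fatty acid metabolism genes found inside a member peak, and no start of 50 contraction and CM identity genes was found in any.

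**Figure D3:**
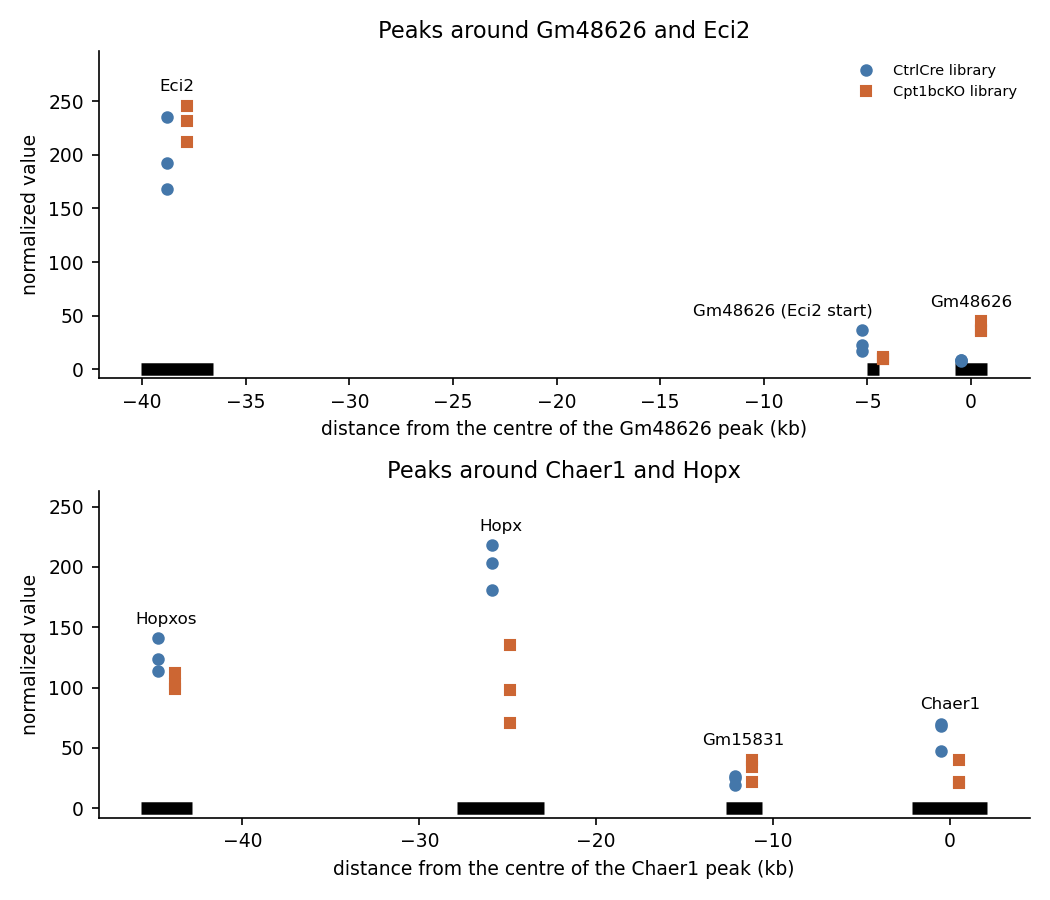
Normalized values of each library (blue circles, CtrlCre; orange squares, Cpt1bcKO) for the union peaks around Gm48626 and Eci2 (top) and around Chaer1 and Hopx (bottom), against the distance of the peak centre from that of the called lncRNA peak in kilobases; symbols of the 2 genotypes are set slightly apart and black bars give peak widths. Of the adjacent Gm48626 peaks, the one at 0 was higher in Cpt1bcKO (log2 2.06) and the one over the Eci2 start had a log2 difference of −1.13 that did not pass (adjusted p = 0.164), whereas Chaer1 (−1.17) and the nearest Hopx peak (−1.02) are both lower.

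Smaller increases were found at 3 further peaks. Gm15743 shares its peak (chr16:31428318-31430479) with the start of Bdh1, which encodes the mitochondrial dehydrogenase that interconverts the ketone bodies acetoacetate and β-hydroxybutyrate. Its values of 130, 95 and 127 in CtrlCre and 176, 160 and 204 in Cpt1bcKO gave a log2 difference of 0.62 ± 0.13 (adjusted p = 0.00801, limma), which missed the threshold without Cpt1bcKO 3 (adjusted p = 0.0896). Which of the 2 genes carries the change cannot be told apart. Gm11292, in the histone gene cluster on chromosome 13, had 3 member peaks. The strongest gave 162, 151 and 178 against 226, 265 and 213 (0.51 ± 0.11, adjusted p = 0.00808), and lost its call without Cpt1bcKO 2 (adjusted p = 0.0791), whereas the other two had log2 differences of 0.20 ± 0.27 and 0.01 ± 0.17. At Gm47469, 86, 51 and 99 compared with 128, 118 and 123 (0.69 ± 0.18, adjusted p = 0.0361). This call was lost on removal of any library but CtrlCre 3, with adjusted p of 0.0609 to 0.171, and in CtrlCre 2 the value was lowest.

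The most marked decrease was at Gm24474, an intergenic gene 173197 bases from the nearest protein-coding start. Values were 104, 79 and 128 in CtrlCre and 23, 10 and 11 in Cpt1bcKO, a log2 difference of −2.81 ± 0.29 (adjusted p = 1.81e-06, limma). The nearest coding peak, of Frmd6, was at 288, 270 and 315 and at 271, 255 and 245 (−0.18 ± 0.10, adjusted p = 0.469). Thus the loss was not seen at the closest coding promoter in the table. Gm16316 (chr2:163693276-163696458) fell from 75, 93 and 83 to 15, 18 and 17 (−2.26 ± 0.24, adjusted p = 2.47e-06). Its peak contained a start of Pkig, an inhibitor of the cAMP-dependent protein kinase, and no start of Gm16316 itself. Both decreases passed in each of the 13 fits.

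A pair of weak intergenic peaks fell to low values. Gm40604 (chr10:15759257-15760330), whose promoter is printed above, went from 29, 28 and 34 to 7, 2 and 7 (−2.44 ± 0.47, adjusted p = 0.00365). Gm49334 (chr9:60527226-60528111) went from 30, 21 and 26 to 7, 5 and 1 (−2.53 ± 0.54, adjusted p = 0.00916), and missed the threshold without CtrlCre 1 (adjusted p = 0.0937). In each, 1 Cpt1bcKO value was near or under that of 3 counts: 2 for Gm40604 in Cpt1bcKO 2, where 3 counts are worth 1.95, and 1 for Gm49334 in Cpt1bcKO 3, where they are worth 2.16. A second peak of Gm49334, over the start of Thsd4, gave 17, 33 and 28 against 21, 24 and 30, with a log2 difference of −0.02 ± 0.32.

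Chaer1, a heart-enriched lncRNA known to bind Polycomb repressive complex 2 and to promote hypertrophic gene expression, was lower in Cpt1bcKO. Its peak (chr5:77136310-77140561) had values of 47, 70 and 68 in CtrlCre and 40, 21 and 22 in Cpt1bcKO. The log2 difference was −1.17 ± 0.27 (adjusted p = 0.0150, limma), and the adjusted p was 0.0847 without CtrlCre 3, 0.0837 without Cpt1bcKO 2 and 0.0738 without Cpt1bcKO 3. Cpt1bcKO 1 lay closest to the controls. The Hopx peak 20794 bases away, over a gene for a homeodomain-only cofactor of heart development, fell from 218, 181 and 203 to 135, 98 and 71 (−1.02 ± 0.16, adjusted p = 0.000406). Here too Cpt1bcKO 1 was the highest of its genotype. Hopxos, an antisense member whose peak contained a start of Hopx, gave 141, 114 and 124 against 103, 112 and 99 (−0.27 ± 0.13, adjusted p = 0.389), and Gm15831, between Hopx and Chaer1, gave 27, 19 and 25 against 34, 40 and 22 (0.39, adjusted p = 0.676). The decrease therefore did not pass at every peak of the interval. Hopxos, like Bvht below, was named after its values were seen.

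The other 9 decreases were at intergenic or antisense genes. Gm30382 fell from 183, 160 and 208 to 102, 121 and 75 (−0.90 ± 0.15, adjusted p = 0.000716, limma) and Gm15283 from 59, 51 and 88 to 28, 21 and 22 (−1.41 ± 0.26, adjusted p = 0.00176). Both calls held in the 13 fits, which leave out the limit of 50 on the mean, where Gm15283 was not tested. Gm40841 gave 104, 112 and 105 against 50, 69 and 74 (−0.74 ± 0.16, adjusted p = 0.0105), and the call was lost without CtrlCre 1 (adjusted p = 0.0524) or Cpt1bcKO 1 (adjusted p = 0.0774). The nearest coding peak, 528808 bases off, was that of Sox4, a transcription factor of heart development, at 401, 481 and 352 and at 337, 292 and 331 (−0.35 ± 0.11, adjusted p = 0.0957). For D830032E09Rik the values were 125, 86 and 159 and then 43, 75 and 76 (−0.92 ± 0.21, adjusted p = 0.0146). Its CtrlCre libraries spread widely, and the call was lost without CtrlCre 1 (adjusted p = 0.0900), CtrlCre 3 (adjusted p = 0.123) or Cpt1bcKO 1 (adjusted p = 0.121).

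The last of these passed narrowly. Gm28294, in the body of Ptprn, had 99, 79 and 107 against 49, 51 and 75 (−0.71 ± 0.18, adjusted p = 0.0352, limma), which rose to between 0.158 and 0.190 without CtrlCre 1 or 3 or Cpt1bcKO 1 or 2. Gm48623 had 140, 158 and 131 against 107, 89 and 109 (−0.49 ± 0.13, adjusted p = 0.0370), and removal of any library but CtrlCre 3 ended the call (adjusted p from 0.0687 to 0.196). Gm48607, 367477 bases from Trib2, had 62, 63 and 83 against 46, 32 and 40 (−0.80 ± 0.21, adjusted p = 0.0379), with the call lost without CtrlCre 1 or 3 or Cpt1bcKO 2 or 3 (adjusted p from 0.0862 to 0.204). Gm36670 and Frmd8os were called at adjusted p of 0.0385 and 0.0467. Gm36670 lost the call on removal of any 1 library (0.0674 to 0.152), and Frmd8os on removal of any but CtrlCre 2 (0.0591 to 0.302).

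**Figure D4:**
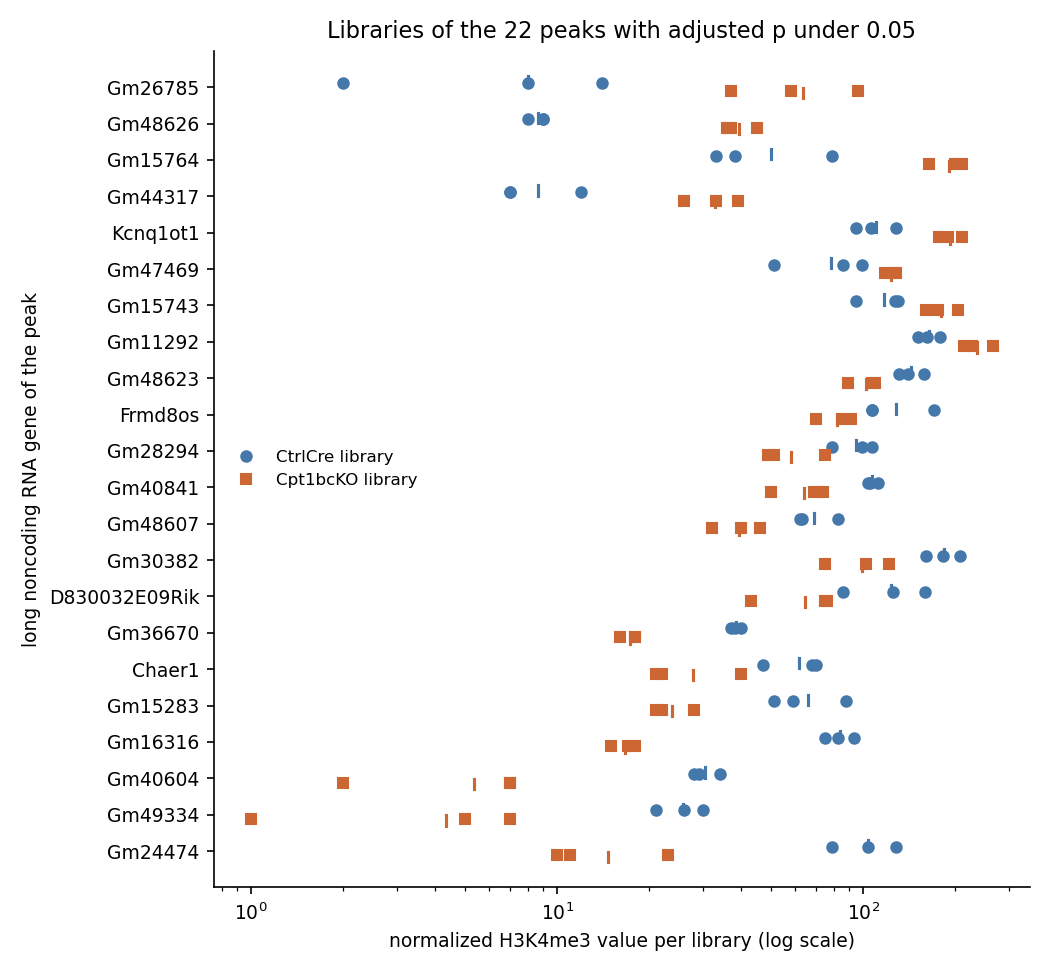
Normalized H3K4me3 values (log axis) of each library at the 22 lncRNA peaks with an adjusted p under 0.05, ordered by log2 difference, with blue circles for CtrlCre and orange squares for Cpt1bcKO and short vertical lines at the genotype means. The genotypes do not overlap at any of the 22 peaks, and the gap is narrowest where CtrlCre and Cpt1bcKO values nearly meet, as at Gm28294 (79 and 75).

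The called peaks were mostly poor in CpG. Only 1 of the 8 higher and 1 of the 14 lower peaks were CpG-rich, with median observed/expected ratios of 0.31 and 0.26, against 0.55 over all tested members. Counted the other way, 7 of 309 CpG-poor members were called higher (2.27%) and 13 lower (4.21%), and 1 and 1 of 173 CpG-rich members (0.578% each). At an unadjusted p under 0.05, 50 of the 54 lower members were CpG-poor. Protein-coding peaks showed an order of the same kind, with 0.546% of CpG-rich and 2.09% of CpG-poor peaks called lower. Levels and errors moved with this class: CpG-poor members had a median standard error of 0.24 and CpG-rich members of 0.19, and the part of level in the difference was not tested. Calls differed by width as well. Of 125 tested members wider than 2000 bases, 4 were called higher and 10 lower (8.0%). Of the 357 others, 4 were called higher and 4 lower (1.12%). Over all tested peaks of any width, 1.11% were called higher and 1.82% lower. These were not split by width, so the order by width cannot be called particular to lncRNA peaks. The wider members were CpG-rich in 27.2% of cases and the others in 38.9%, and the part of width was not tested.

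**Figure D5:**
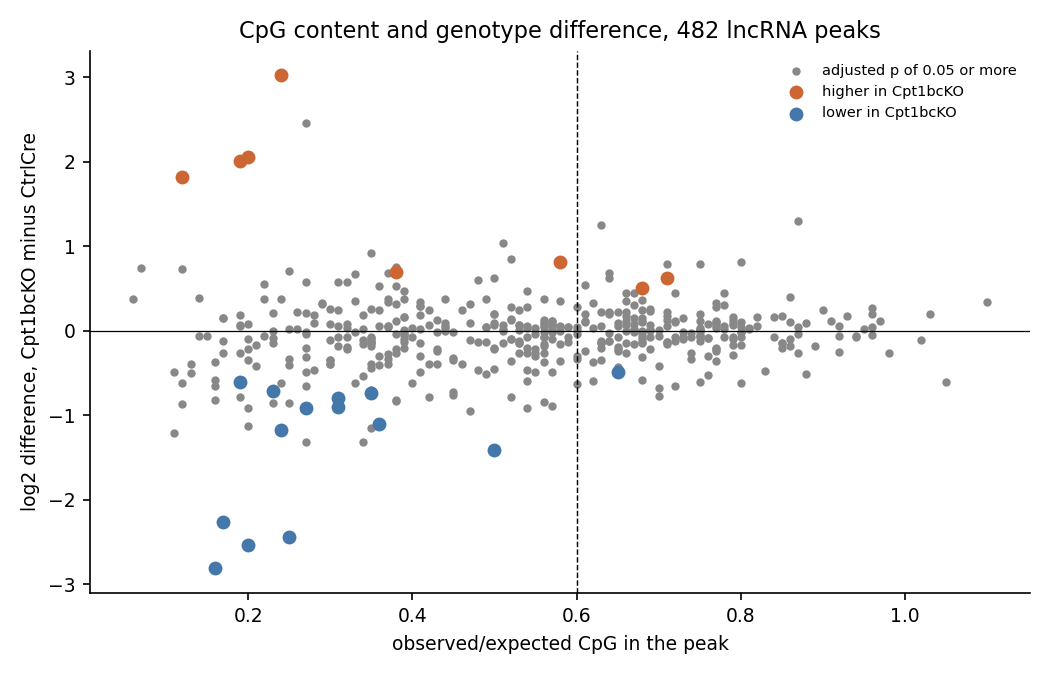
Observed/expected CpG ratio of each of the 482 tested lncRNA peaks against its log2 difference, Cpt1bcKO minus CtrlCre; orange and blue points have an adjusted p under 0.05 and the dashed line marks a ratio of 0.6. Differences beyond 1 on the log2 scale that passed the test all lie at ratios of 0.50 or less.

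The 2 directions are described by position next. Of the 14 lower peaks, 12 held only the start of their own lncRNA, 1 held a protein-coding start and 1 neither, and 10 were lincRNA. Of the 8 higher peaks, 3 held only their own start, 1 a protein-coding start and 4 neither. Among all 482 tested members, 255 held only their own start, 92 a protein-coding start and 135 neither, and 258 were lincRNA. Median distances to the nearest protein-coding start were 113185 bases for the lower and 7012 bases for the higher peaks, as a description of lists chosen by the test. The median distance over all tested members was not computed, so these distances have no background. Of the 20 called peaks without a coding start, 9 had a tested coding peak within 50000 bases, and 1 of those neighbours, Hopx, passed the test. Over all 203 such pairs the log2 differences of lncRNA and coding peak had a Pearson r of 0.08, across peaks of the same libraries.

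Known lncRNA genes were examined as groups. Of 9 imprinted genes, 4 had a member peak, and of the 3 tested 1 was higher (Kcnq1ot1). Airn, which silences Igf2r on the paternal chromosome, gave 116, 121 and 125 in CtrlCre and 133, 123 and 115 in Cpt1bcKO, with a log2 difference of 0.03 ± 0.12. The genotypes overlapped, unlike those of Kcnq1ot1. Peg13, an imprinted transcript within Trappc9, gave 156, 179 and 158 against 131, 127 and 127, without overlap, but did not pass (−0.35 ± 0.11, adjusted p = 0.104, limma). H19 had a peak with a mean of 5.83 and was not tested.

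Of 16 nuclear and chromatin lncRNA genes, 5 had a tested peak and 1, again Kcnq1ot1, was called. Lockd, which starts downstream of the cell cycle inhibitor Cdkn1b, gave 140, 114 and 131 against 164, 151 and 153 (0.28 ± 0.12, adjusted p = 0.271), and Pvt1, the neighbour of Myc, 37, 63 and 49 against 60, 58 and 88 (0.47 ± 0.22, adjusted p = 0.372). Only the Lockd values were free of overlap. Trp53cor1 and 2900097C17Rik had adjusted p of 0.902 and 0.890. Of 21 host genes of small nucleolar RNAs, 3 had a tested peak and none was called. Snhg8 was the steadiest, with 221, 235 and 235 against 231, 236 and 221 (−0.01 ± 0.10), beside Snhg17 (0.24 ± 0.14) and Snhg6 (0.20 ± 0.12).

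Of 17 microRNA host genes, 7 had a peak and none of the 5 tested was called. Mir155hg was the only one above the upper quartile of levels over all members, tested or not (107). It gave 109, 121 and 97 against 133, 116 and 129 (0.21 ± 0.13, adjusted p = 0.535, limma). The other 4 tested had means from 10.2 to 26.8 and adjusted p from 0.741 to 0.938. Of 13 heart and muscle lncRNA genes, 3 had peaks, and Chaer1 was the 1 call among 3 tested peaks. The 2 peaks of Dubr, which takes part in myoblast differentiation, had log2 differences of −0.09 ± 0.15 and −0.21 ± 0.20. The first held a start of Dubr, and the second was centred 4143 bases from the gene start and held none. Bvht, a lncRNA of cardiac commitment outside those lists, gave 16, 19 and 22 against 7, 8 and 6 at a weak peak (−1.32 ± 0.45, adjusted p = 0.144). That peak was centred 1543 bases from the gene start and held no start of Bvht. The genotypes did not overlap at Bvht, but the test was not passed.

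For another 24 of the listed genes a start lay in a union peak that the table assigned elsewhere or that was wider than the limit, among them Malat1, Mhrt and Hand2os1. The start of Neat1 lay in a peak 7394 bases wide (−0.45, adjusted p = 0.0480, limma), that of Snhg18 in a peak assigned to Sema5a (−1.12, adjusted p = 0.000164) and that of Snhg15 in one assigned to Snora9 (0.58, adjusted p = 0.0187). Hence the members cover only part of the lncRNA starts that carried H3K4me3.

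Among the 17 tested members named as opposite-strand transcripts, Frmd8os was the 1 call. Tbc1d22bos, below the threshold, had a large log2 difference of 2.46 at low values (5, 5 and 0 against 16, 13 and 24, adjusted p = 0.0547). It was named after its values were seen, as were the next 2 peaks, which did not pass either. Gm15589, over a start of the potassium channel gene Kcnh2, gave 93, 53 and 91 against 57, 42 and 35 (−0.79, adjusted p = 0.0629). Gm15178, over a start of the muscle kinase gene Speg, gave 39, 44 and 39 against 24, 32 and 25 (−0.58, adjusted p = 0.329). Of these 2, the genotypes were separate at Gm15178 only. Gm26578, the wide peak over a start of the growth factor gene Nrg1, gave 63, 49 and 81 against 92, 70 and 98 (0.44, adjusted p = 0.309).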

How the data were processed

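H3K4me3 ChIP–seq libraries of 3 CtrlCre and 3 Cpt1bcKO samples were analysed; 6 input libraries have no column in the table and were not used here. The authors trimmed reads (Trimmomatic 0.39), kept unique unspliced alignments to mm10 (GRCm38; STAR 2.6.1d), removed duplicates (Picard 2.21.7), called peaks per library against input with MUSIC (false discovery rate 0.2) and merged them. The authors divided the counts of each union peak by DESeq2 1.26.0 size factors, and the deposited scores are these values rounded. The authors also deposited the mean signal of each genotype, unrounded, and the fraction of each peak inside the gene body. Their fold changes and p-values were not used.

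Both means were solved for whole counts, which gave 1 solution for each of the 15848 peaks and the depth per library. Counting error and the value of 3 counts cover counting error only. Values were fitted as log2(value + 1) with limma 3.58.1 (R 4.3.3; lmFit, eBayes with trend) for peaks with a mean of at least 10, two-sided, with Benjamini–Hochberg adjustment over 15039 peaks. The fit was tested on simulated data. A log2 difference understates the change of low peaks. Symbols and transcript starts were from GENCODE vM21 (524 of 531 gene IDs matched), base composition and promoters from RefSeq GRCm38.p6. Coordinates are as the table gives them; the surroundings of 1 named peak are not reported here. Named peaks were the called ones (12 of lowest p in a direction), those of fixed gene lists, the 5 strongest and the 3 widest. Members and lists were chosen with earlier results of these data known.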

Additional observations from a re-analysis of the deposited data

How the results depend on the processing

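The 22 calls became 22 with a pseudocount of 0.5, 23 with 5, 22 without the filter on low values, 19 after quantile normalization, 25 with limma-voom on recovered counts and 26 with all widths. With a mean of at least 50, where 239 members were tested, there were 13 calls, 47 peaks with an unadjusted p under 0.05 (85 in the fit reported) and a median log2 difference of 0.007. Leaving out 1 library in turn gave 13 to 24 calls, of which 13 to 19 were among the 22, 70 to 80 peaks with an unadjusted p under 0.05 and a median of −0.055 to −0.029. The median was 0.004 after quantile normalization, so its sign is not fixed. No called peak changed direction in any fit. Replicate numbers did not pair the libraries (correlations of deviations 0.076, −0.081 and 0.11), and with the replicate number as a block 19 calls were made, all among the 22. The share of members over a protein-coding start was 19.2% with starts within 1000 bases and 18.1% with all widths. Depth limits the weak peaks: the median standard error was 0.34 for members with a mean under 50 and 0.14 for the others.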
